A study of Mus musculus with 4 samples.

Results

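Antiviral interferon-stimulated genes are the genes that cells switch on when type I interferon binds its receptor, and they were followed here across 4 arrays of mouse microglia. The set was a list of 40 genes chosen by name, and a gene was read from a probe set that carries its symbol alone. Of the 40, 37 had such a probe set, out of 19938 genes with a value, and each of the 37 had exactly 1. Isg15 and Ifi204 lie only on probe sets shared with another symbol, and Ifi44 is not named in the probe table, so no value is given for these 3 genes. Microglia, the macrophages of the brain, were labelled wild type (WT; strain C57Bl, no agent), WT with lipopolysaccharide (LPS) for 3 h, Bid-/- (knockout of the BH3-only gene Bid, no agent) and Bid-/- with LPS for 3 h. Each group was 1 array, and the design text states that there was no replication. The labels of the Bid-/- arrays name no strain, and no label names the sex or how many animals or cultures each array stands for, so strain, culture and knockout cannot be told apart in a comparison between the labels.

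Type I interferon signals through its receptor, the kinases Jak1 and Tyk2 and a transcription factor complex with Stat2 and Irf9 that binds the interferon-stimulated response element (ISRE) in gene promoters. The products block viruses at many steps: they sense viral RNA, degrade RNA, halt translation, bind viral particles and tag proteins with ubiquitin-like Isg15. LPS, a bacterial cell wall component, is sensed by Tlr4, whose Ticam1 (TRIF) branch induces interferon beta, so that in macrophages many of these genes are known as a second wave that follows the first inflammatory genes. Microglia are known to keep part of this programme on without infection.

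Promoter sequences describe the members beyond the list, although no motif searched for was present in most of the promoters found. RefSeq promoters (GRCm38.p6) were found for 30 of the 40 genes, and the 250 bases before each annotated start were searched on both strands. The ISRE letters, GAAA and GAAA separated by any 2 bases, were present for 9 of the 30 (30.0%), against 3.46% of 27025 genes with a promoter. The 9 were Isg15, Ifit1, Ifit3, Oas1a, Oas3, Ddx60, Bst2, Rsad2 and Trim30a. The interferon-gamma activated site TTCNNNGAA was present for 5 of 30 (16.7% against 8.13%) and the NF-kB consensus motif for 6 of 30 (20.0% against 8.23%). Matches of different motifs overlapped one another in Bst2 and Ifit2. The 150 bases before the start are given for 5 genes on which the results turn, 5′ to 3′ in the direction of transcription, with ISRE letters in capitals (for Oasl1, which had none in this window, the overlapping NF-kB matches are in capitals instead).
Ifit1, chr19:34640739-34640888, plus strand: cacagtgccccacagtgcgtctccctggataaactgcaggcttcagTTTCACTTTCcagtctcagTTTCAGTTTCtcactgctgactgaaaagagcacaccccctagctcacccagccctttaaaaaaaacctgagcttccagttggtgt
Rsad2, chr12:26456453-26456602, minus strand: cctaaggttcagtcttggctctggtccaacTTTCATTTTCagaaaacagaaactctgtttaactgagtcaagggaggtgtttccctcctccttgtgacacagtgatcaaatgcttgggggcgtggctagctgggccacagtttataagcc
Ddx60, chr8:61927937-61928086, plus strand: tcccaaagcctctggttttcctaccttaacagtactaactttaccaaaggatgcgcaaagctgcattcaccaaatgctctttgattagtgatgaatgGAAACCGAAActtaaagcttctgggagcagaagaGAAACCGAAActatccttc
Bst2, chr8:71537473-71537622, minus strand: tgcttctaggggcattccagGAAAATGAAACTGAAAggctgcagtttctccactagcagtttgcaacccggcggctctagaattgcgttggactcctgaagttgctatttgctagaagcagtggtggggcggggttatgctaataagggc
Oasl1, chr5:114923090-114923239, plus strand: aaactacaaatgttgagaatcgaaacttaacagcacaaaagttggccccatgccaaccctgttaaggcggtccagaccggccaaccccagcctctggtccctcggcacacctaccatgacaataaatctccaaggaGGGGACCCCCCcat
Ifit1 held ISRE letters at positions -104 and -85, counted from the start of the gene, and Ddx60 held the same 10 letters at -53 and -19. A match of letters is a description of the window and not a measured binding site.

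All values are the deposited numbers, read as log2 expression, so that a difference of 1 is 2-fold. A gene was counted in a comparison when at least 1 of its arrays reached a floor of 4.26, which is the 4-array mean of the middle probe set in the table. All 37 members were above the floor on all 4 arrays, so no member entered through 1 group alone. The probe set of Bid read 5.69 (WT), 5.02 (WT with LPS), 5.53 (labelled Bid-/-) and 5.97 (labelled Bid-/- with LPS), and was thus not lower on the LPS array labelled Bid-/-. The sources used here do not say whether its probes lie in the deleted part, so genotypes are given as labelled. Of 16 microglia markers with a value, 14 reached the floor on an array, among them Csf1r, Itgam, C1qa and Cx3cr1. Siglech and Gpr34 stayed below it. P2ry12 read 4.33 (WT) and 4.38 (labelled Bid-/-) without LPS, and 3.91 and 3.90 with it, below the floor. None (0) of 8 neutrophil markers reached the floor, and 1 of 8 neuron and 1 of 7 lymphocyte markers did. Among astrocyte markers 6 of 8 reached it on an array, as did 6 of 7 of the oligodendrocyte lineage and 5 of 7 of endothelium. Cnp, of the oligodendrocyte list, read 8.58 on the untreated WT array, where the astrocyte and endothelial lists had mean levels of 4.17 and 4.15. The fibroblast and mural cell markers (14 genes) had a mean level of 4.62 on the WT array, 5.25 with LPS, and 5.21 on both arrays labelled Bid-/-, with 10 of 14 at the floor on an array. In bulk RNA, fewer cells of a type and less RNA per cell cannot be told apart.

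Without any LPS, every measured member was already well above the floor. The mean level of the 37 was 9.29 on the WT array and 9.49 on the array labelled Bid-/-; with LPS it was 9.06 in WT and 9.51 for the label Bid-/-. The lowest single reading among all members and arrays was 6.48, for Mx1 in WT with LPS. That WT LPS array was the lowest of the 4 for 23 of 37 members (62.2%, against 32.4% of 11326 genes), and the untreated array labelled Bid-/- was the lowest for none (0, against 16.0%). The highest reading lay on an array labelled Bid-/- for 31 members, 17 without LPS (45.9%, against 26.6% of all genes) and 14 with it (37.8%, against 23.3%).

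**Figure D1:**
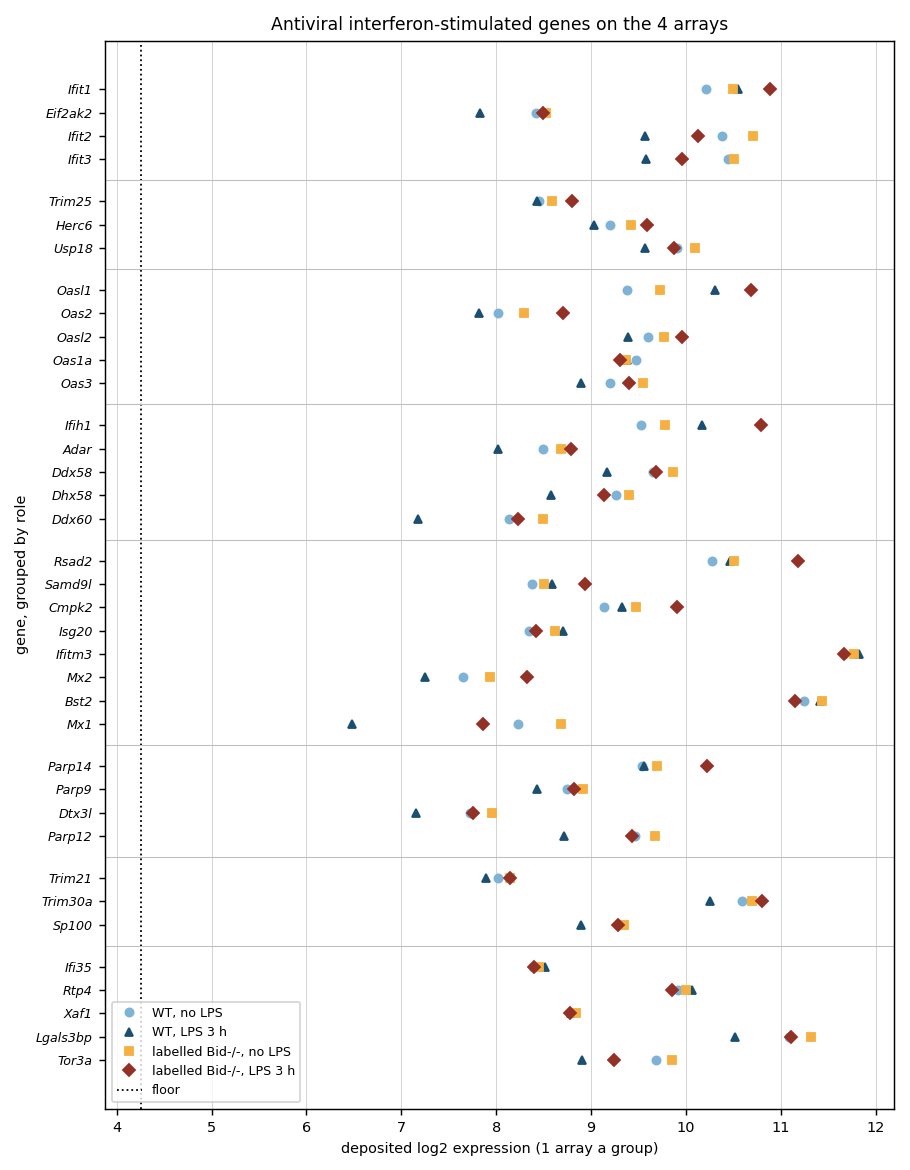
Deposited log2 expression (x axis) of the 37 genes (y axis, grouped by role) on the 4 arrays, 1 point an array; the dotted line is the floor of 4.26. All points lie above the floor, and the WT LPS array (dark triangles) is the lowest point for 23 genes.

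After 3 h of LPS the antiviral genes did not move as a block in WT. A few were higher, more were lower, and most stayed within 1.5-fold of the untreated array. Of 37 members, 12 were above 0 and 24 below 0 in WT (44.0% and 54.7% of 11129 genes), with a median of -0.21 against -0.05 for all genes. At least 2-fold lower was 1 member, Mx1 (2.08% of all genes), and at least 2-fold higher was none (0, against 2.39%). At 1.5-fold, 8 were lower and 2 higher (11.1% and 5.8% of all genes). Between the arrays labelled Bid-/-, 14 were above 0 and 22 below (38.6% and 60.1% of 10995 genes), with a median of -0.06 against -0.10 for all genes. There, 1 member, Ifih1, was at least 2-fold higher (2.7% of all genes) and none (0) 2-fold lower (1.65%), while 3 were at least 1.5-fold higher and 2 lower (6.88% and 10.4%). The median of the label Bid-/- turned to 0.02 when a trend with intensity was removed. On the same arrays the NF-kB type inflammatory genes were higher with LPS: all 18 were above 0 under both labels, with medians of 2.43 and 2.15. Il6, Cxcl1 and Il12b had the largest mean changes (4.08, 3.58 and 3.29). This list was chosen with earlier results of these data known, so its rise is a description and not a test. The median LPS difference of the microglia markers was -0.28 in WT and -0.45 for the label Bid-/-. That of the fibroblast and mural cell markers was 0.76 in WT, with 10 of 10 above 0, and -0.04 for the label Bid-/-. The part of either list in these differences was not tested.

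To ask which changes were shared by both labels, an additive model with terms for LPS and genotype label was fitted with limma over 11326 genes. It has 1 residual degree of freedom, which is how unequally the labels responded, and no label says that the arrays are separate cultures. For LPS the fit called 1 of 37 members higher (1.68% of all genes) and 0 lower (1.56%), while 8 members had an unadjusted p under 0.05 (21.6%, against 28.8% of all genes), 3 of them higher. The called gene was Oasl1, at a Benjamini-Hochberg adjusted p of 0.0499 that ran from 0.00279 to 0.130 over 5 alternatives, on both sides of the threshold of 0.05. Of the 18 NF-kB type genes, a list chosen with earlier results of these data known, 13 were called higher.

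The Ifit proteins bind viral RNA and halt its translation, and Eif2ak2 (PKR) is the kinase that halts translation on double-stranded RNA. Ifit1 read 10.21 on the WT array, 10.55 with LPS, 10.50 for the label Bid-/- and 10.89 for that label with LPS. Its LPS differences were therefore 0.34 and 0.39. Ifit3, of the same family and with 3 coding genes between it and Ifit1, had the opposite sign: it read 10.44, 9.58, 10.51 and 9.96 in the same order, differences of -0.86 and -0.55 (limma adjusted p = 0.0784). Ifit2, which lies next to Ifit3, differed by -0.81 and -0.58 (limma adjusted p = 0.0721) and Eif2ak2 by -0.59 and -0.04. Both LPS readings lay above both untreated ones for Ifit1 and below both for Ifit2 and Ifit3. The Ifit genes have close copies in the mouse, so their probe sets may read more than 1 gene.

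Usp18 removes Isg15 from proteins and dampens the receptor, Herc6 is a ligase for Isg15 and Trim25 a ubiquitin ligase that activates RIG-I. Usp18 read 9.91 and 9.57 in WT and 10.10 and 9.87 for the label Bid-/- (untreated, then LPS). Trim25 read 8.45 and 8.43, then 8.59 and 8.80. Herc6 differed by -0.17 in WT and 0.17 for the label Bid-/-. None of the 3 LPS differences in WT reached 1.5-fold, and that of Trim25, -0.02, turned to 0.03 with the intensity trend removed and 0.09 with the span trend removed as well.

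The Oas enzymes make the second messenger that activates RNase L, and Oasl1 and Oasl2 are relatives that carry ubiquitin-like repeats. Oasl1 had the highest LPS differences of its family and rose on both pairs of arrays, from 9.38 to 10.31 in WT and from 9.73 to 10.69 for the label Bid-/-. These differences of 0.93 and 0.96 gave a mean change of 0.95 (SE 0.13, limma adjusted p = 0.0499). Oasl2, the next protein-coding gene on the chromosome, showed -0.21 and 0.19. Oas3, the lowest of the family, read 9.20 and 8.89 in WT and 9.55 and 9.40 for the label Bid-/-. Oas2 differed by -0.20 and 0.41, and Oas1a by -0.09 and -0.06. Oas1a has near-identical copies, and its reading may include them.

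Ddx58 (RIG-I) and Ifih1 (MDA5) are helicases that sense viral RNA, Dhx58 (LGP2) modulates both, Ddx60 is a related helicase and Adar edits double-stranded RNA so that these sensors ignore it. The sensors split after LPS. Ifih1 read 9.53 and 10.17 in WT and 9.78 and 10.79 for the label Bid-/-, 1.01 or 2.01-fold higher in the latter (mean change 0.83, SE 0.16, limma adjusted p = 0.0695). Its LPS readings lay above both untreated ones. Ddx60 read 8.13 and 7.18 in WT and 8.49 and 8.23 for the label Bid-/-, differences of -0.95 and -0.26. Dhx58 (-0.68 and -0.26) and Ddx58 (-0.48 and -0.17) were also below 0 on both pairs, and Adar differed by -0.47 and 0.11.

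Among restriction factors, the Mx GTPases trap viral nucleoproteins or capsids, Bst2 (tetherin) holds budding particles at the cell surface, Ifitm3 blocks virus entry, Rsad2 (viperin) and its neighbour Cmpk2 act on nucleotides, Isg20 is an exonuclease and Samd9l restrains poxviruses. Mx1 had the largest LPS difference of any member. It read 8.23 and 6.48 in WT, a difference of -1.75, and 8.68 and 7.86 for the label Bid-/-, -0.82 (mean change -1.29, SE 0.27, limma adjusted p = 0.0789). Many laboratory mouse strains carry a defective Mx1 allele. The WT labels name the strain C57Bl, the Bid-/- labels name none, and no label states the allele. The part of strain or allele in the Mx1 readings was not tested. Mx2 read 7.65 and 7.25 in WT and 7.93 and 8.32 for the label Bid-/-, so the sign of its LPS difference depended on the label. Rsad2 read 10.27 and 10.47 in WT and 10.51 and 11.18 for the label Bid-/-. Its neighbour Cmpk2 had differences of the same sign (0.19 and 0.44, against 0.20 and 0.67), and Samd9l was similar (0.21 and 0.44). Bst2 (0.17 and -0.29), Ifitm3 (0.15 and -0.10) and Isg20 (0.35 and -0.20) were higher with LPS in WT and lower for the label Bid-/-, although the WT difference of Ifitm3 turned to -0.04 with trends in intensity and span removed.

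Parp9, Dtx3l and Parp14 are ADP-ribosylation genes that follow each other on the chromosome with no coding gene between them, and Parp12 is a further family member. Parp14 read 9.54 and 9.56 in WT and 9.70 and 10.22 for the label Bid-/-. Parp12 read 9.46 and 8.71, then 9.67 and 9.43, differences of -0.75 and -0.24. Dtx3l differed by -0.57 and -0.20, and Parp9 by -0.32 and -0.10. For the label Bid-/-, Parp14 differed by 0.52 and its neighbours thus did not share its sign. In WT the Parp14 difference was only 0.02, and it turned to -0.07 after quantile normalization.

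Trim21 is an antibody receptor of the cytosol, Trim30a belongs to a mouse-specific Trim cluster and Sp100 is a nuclear body protein. Trim21 read 8.02 and 7.89 in WT and 8.15 on both arrays labelled Bid-/-. Sp100 read 9.28 and 8.89, then 9.35 and 9.28. Trim30a differed by -0.34 and 0.10. Of the remaining genes, Tor3a, an ATPase of the endoplasmic reticulum, read 9.69 and 8.90 in WT and 9.85 and 9.24 for the label Bid-/- (mean change -0.70, SE 0.14, limma adjusted p = 0.0764). Ifi35 read 8.39 and 8.51, then 8.45 and 8.40. Lgals3bp, a secreted glycoprotein, differed by -0.57 and -0.21, Rtp4 by 0.14 and -0.15 and Xaf1 by 0.00 and -0.06.

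**Figure D2:**
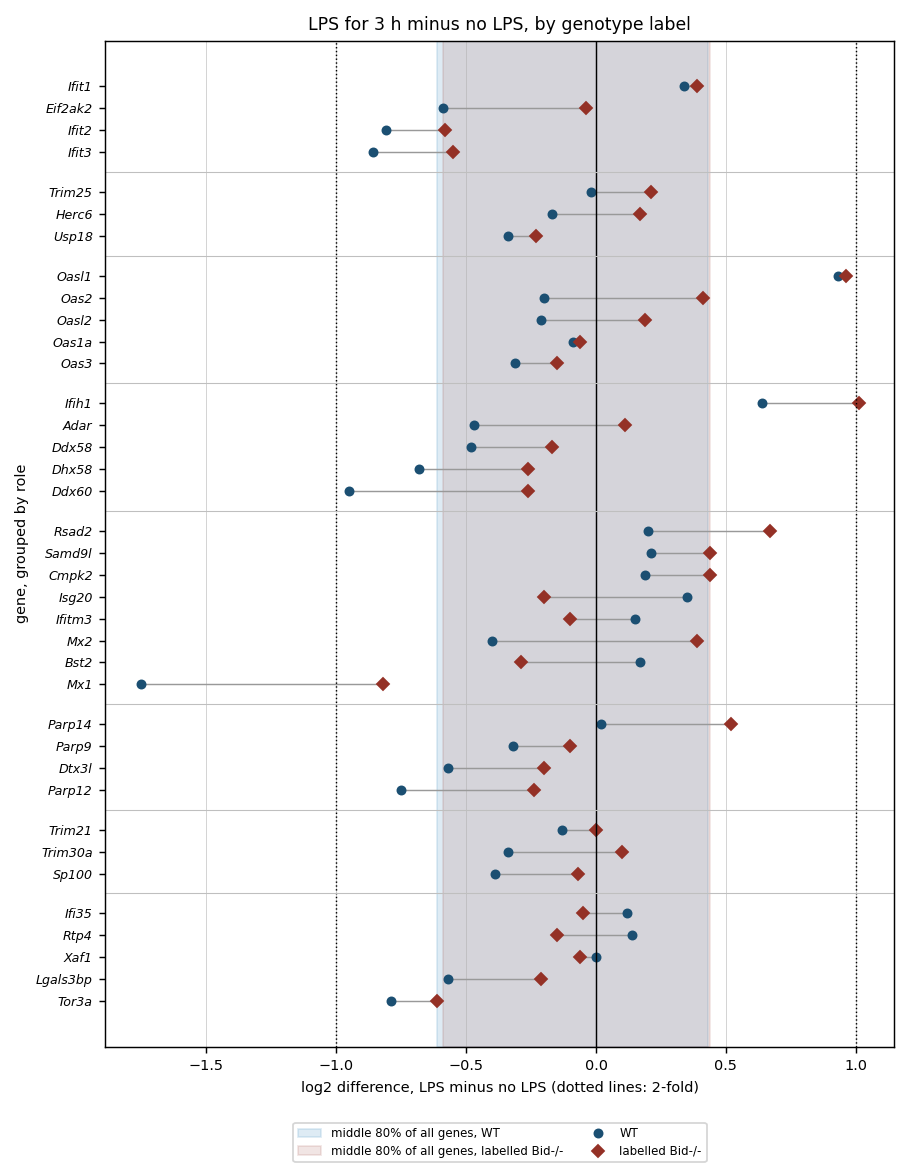
Log2 difference between LPS and no LPS (x axis) for the 37 genes (y axis, grouped by role) in WT (circles) and for the label Bid-/- (diamonds); shaded bands hold the middle 80% of all genes and dotted lines mark 2-fold. Mx1 lies lowest under both labels, Oasl1 and Ifih1 lie highest, and 31 genes have the diamond to the right of the circle.

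The signalling genes upstream of the members showed no common rise either. Of 13 genes for the induction of interferon, 4 were above 0 and 9 below under each label. Among them, Tlr4 differed by -0.92 in WT and -0.81 for the label Bid-/-, and Ticam1 by 0.63 and 0.81. None of the interferon ligands that reached the floor changed by 1.5-fold. Ifna5, Ifnz, Ifnl2 and Ifne differed by at most 0.24 in WT, and Ifna5 by 0.36 for the label Bid-/-. The ligand medians were 0.05 in WT and 0.04 (3 genes) for the label Bid-/-. Ifnb1, the interferon that LPS is known to induce, read 3.09 and 4.24 in WT and 3.12 and 3.83 for the label Bid-/-, below the floor on all 4 arrays, with differences of 1.15 and 0.71. The receptor chains Ifnar1 (-0.11 and -0.11) and Ifnar2 (0.15 and -0.14) were close to 0, whereas the interferon-gamma receptor chain Ifngr1 differed by -0.78 and -0.87 (limma adjusted p = 0.0635). Stat2 read 9.74 and 8.64 in WT and 10.05 and 9.60 for the label Bid-/-, -1.10 and -0.45. Irf9 differed by -0.37 and -0.09, Jak2 by 0.92 and 0.99 (limma adjusted p = 0.0501) and the adaptor Mavs by -0.65 and -1.04. Socs3, a feedback inhibitor of cytokine receptors, rose by 2.10 and 1.66 (limma adjusted p = 0.0327). Of 40 pathway genes tested, the fit called 1 higher, Socs3, and 0 lower, against 1.68% and 1.56% of all genes. An unadjusted p under 0.05 was found for 17 of the 40, 6 of them higher (42.5%, against 28.8% of all genes).

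Between untreated arrays, nearly every antiviral gene was slightly higher for the label Bid-/-. Of 37 members 36 were above 0 (51.6% of 10909 genes) and 1 below (45.8%), with a median of 0.19 against 0.01 for all genes. The differences were small and close together, from -0.10 for Oas1a to 0.45 for Mx1. None (0) reached 1.5-fold in either direction, where 1.45% of all genes were higher and 0.44% lower, and none (0) reached 2-fold (0.358% and 0.0733%). By role, the medians ran from 0.08 for the remaining genes to 0.27 for the Oas family. Next to Mx1, the largest were Ddx60 (0.36), Oas3 and Oasl1 (0.35 each) and Ifit2 and Cmpk2 (0.33 each). The interferon-inducible GTPases, a related group, lay further apart: all 8 were above 0, with a median of 0.68 and Iigp1 at 0.88 and Gbp5 at 0.86. The fibroblast and mural cell markers were higher on the same array, with 9 of 9 above 0 and a median of 0.87. With LPS their median was 0.22, with 7 of 10 above 0 and 3 below, from -1.43 for Tagln to 0.57 for Pdgfra. The part of these markers in the results between the labels was not tested.

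With LPS, the antiviral genes were further apart between the labels. Of 37 members 30 were above 0 (50.9% of 11044 genes) and 7 below (47.8%), with a median of 0.52 against 0.01 for all genes. At least 1.5-fold higher were 12 members (4.69% of all genes) and lower none (0, against 6.07%); at least 2-fold higher were 3 (0.326%) and lower none (0, against 0.489%). The 3 were Mx1 at 1.38 (2.60-fold), Mx2 at 1.07 (2.10-fold) and Ddx60 at 1.05 (2.07-fold). Oas2 (0.88), Adar (0.77), Parp12 (0.72), Rsad2 (0.71), Eif2ak2 and Parp14 (0.66 each), Ifih1 (0.62), Dtx3l (0.61) and Lgals3bp (0.59) made up the 12. The RNA sensors and the Parp group had the highest medians, 0.62 and 0.64, and all members of both were above 0. Stat2, Tyk2, Jak1 and Irf9, which carry the interferon signal, were 0.96, 0.63, 0.46 and 0.24 higher. The receptor chains Ifnar1 and Ifnar2 differed by 0.13 and -0.19. Across 39 pathway genes the median was 0.13, with 28 above 0 and 11 below. The NF-kB type genes had a median of -0.02 in the same comparison, and the GTPases of 0.68 with all 8 above 0. The genes of MHC class I presentation, a further interferon-regulated group, had a median of -0.13, with 5 of 11 above 0 and 6 below. The 6 below 0 were short genes of 2.67 to 5.40 kb, and the 5 above 0 spanned 9.67 to 92.9 kb. The part of gene length in this split was not tested. The microglia markers had a median of -0.39, with 10 of 13 below 0, and their part in the members' differences was not tested.

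**Figure D3:**
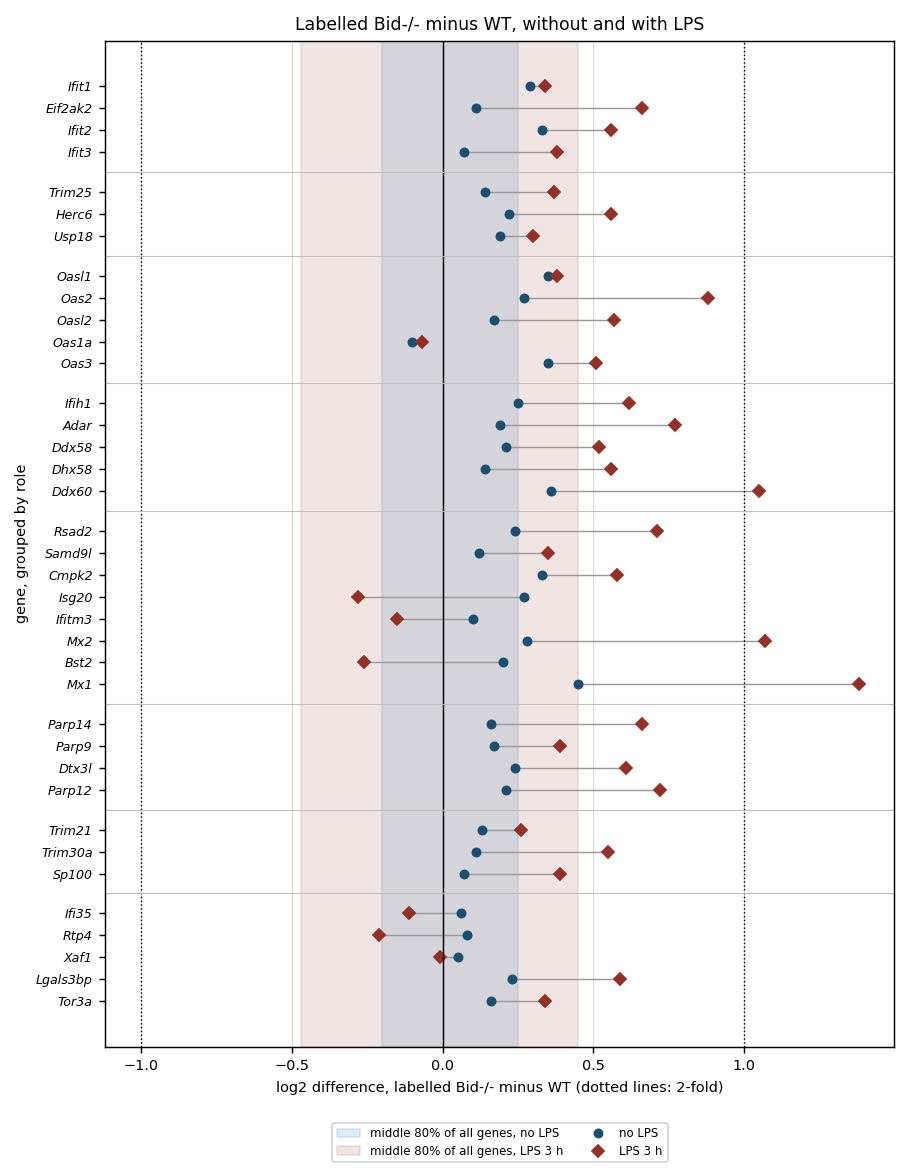
Log2 difference between the label Bid-/- and WT (x axis) for the 37 genes (y axis, grouped by role) without LPS (circles) and with LPS (diamonds); shaded bands hold the middle 80% of all genes and dotted lines mark 2-fold. Without LPS 36 circles lie above 0, and with LPS 3 diamonds, Mx1, Mx2 and Ddx60, pass 2-fold.

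The 7 members below 0 with LPS were Isg20 (-0.28), Bst2 (-0.26), Rtp4 (-0.21), Ifitm3 (-0.15), Ifi35 (-0.11), Oas1a (-0.07) and Xaf1 (-0.01). Gene span, the distance from the first to the last base of the gene in RefSeq, moved with this comparison across all genes. Spearman's rho between span and difference was 0.40 across 11037 genes with LPS and 0.14 across 10903 without, and 0.41 across the 37 members with LPS; genes within these 2 arrays are not independent. Of genes under 10 kb, 29.7% were above 0 with LPS, against 59.6% of longer genes. Of 8 members under 10 kb, 5 were above 0 (median 0.30), and of 29 longer members 25 (median 0.56). Of the 7 members below 0, Ifitm3, Bst2 and Isg20 span 1.16, 3.22 and 7.00 kb. Ifi35, Oas1a and Xaf1 span 10.3, 11.3 and 12.3 kb, and Rtp4 spans 94.0 kb. The median span of the 37 members was 20.7 kb. With trends in intensity and span removed together, 33 of 37 members were above 0 with a median of 0.48, Mx1 stood at 1.35, Mx2 at 0.98 and Ddx60 at 0.80, and 1 member was at least 2-fold higher.

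**Figure D4:**
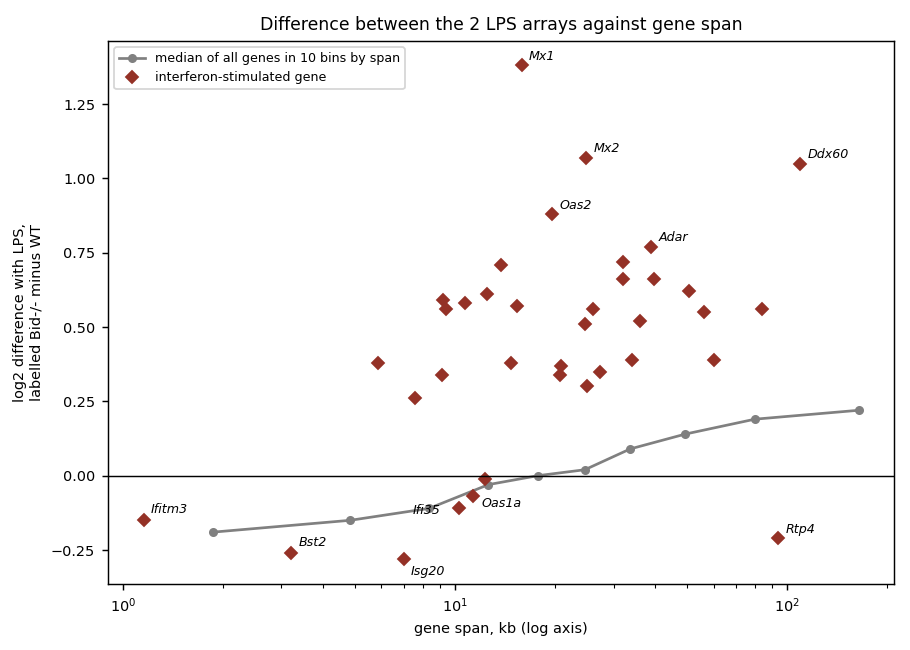
Log2 difference between the LPS arrays, label Bid-/- minus WT (y axis), against gene span in kb (x axis, log scale) for the 37 genes (diamonds), with the median of all genes in 10 equal bins by span (grey line). The grey line runs from -0.19 in the shortest bin to 0.22 in the longest, and most diamonds lie above it.

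For genotype, the additive limma fit called 0 of 37 members (0.0% of all genes in either direction), and all adjusted p-values were at least 0.62. Over the 5 alternatives, the lowest limma adjusted p of a member was 0.185, for Mx1. Across all genes, the genotype calls of the fit numbered 39 of 11308 after quantile normalization and 17 of 11319 with noise within the rounding. An unadjusted limma p under 0.05 was found for 10 of 37 members, all of them higher for the label Bid-/- (27.0%, against 6.26% of all genes). They were Mx1, Mx2, Ddx60, Ifih1, Ifit2, Oas3, Oasl1, Rsad2, Cmpk2 and Lgals3bp.

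The LPS difference was greater (or less negative) for the label Bid-/- than for WT in 31 of 37 members (49.4% of 11326 genes) and less in 6 (49.1%). The median of this difference of response was 0.31, against 0.00 for all genes. It equals the difference between the labels with LPS minus that without, so it is not further evidence beside them. Spearman's rho between gene span and the difference of response was 0.44 across the 37 members and 0.34 across 11319 genes. With trends in intensity and span removed, the median of the members was 0.24. The part of span was not tested. None (0) reached 2-fold in either direction (0.159% and 0.627% of all genes). At 1.5-fold none (0) was lower (6.06%) and 4 were higher (3.26%): Mx1 (0.93), Mx2 (0.79), Ddx60 (0.69) and Oas2 (0.61). Mx1 and Ddx60 were below 0 with LPS under both labels, less so for the label Bid-/-. The lowest were Isg20 (-0.55) and Bst2 (-0.46). Across the 37 members, the LPS differences of the labels had r = 0.77 and rho = 0.67, beside 0.74 and 0.60 across all 11326 genes; the genes of an array share its hybridisation and scaling. No array is left over to test this difference.

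The promoter windows did not sort the members by these differences. The 8 measured members with ISRE letters had medians of -0.20 (LPS in WT), 0.22 (label Bid-/- minus WT without LPS) and 0.45 (with LPS). The 20 without had -0.15, 0.20 and 0.54, and the 9 with no promoter entry had -0.34, 0.17 and 0.56.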

How the data were processed

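The authors deposited 1 table of log2 expression for 28944 probe sets on 4 Affymetrix Mouse Gene 1.0 ST arrays (total RNA, 1 array a group). Per the submitters' processing notes the tools were Affymetrix Expression Console, Partek 6.2 and RMA, whose roles are not given. No header states the scale; log2 was inferred from RMA and from values of 1.4 to 13.5. RMA's quantile step would take out a shift common to all genes. Depth has no meaning for arrays; their number limits the precision. In the platform annotation 21789 probe sets had 1 symbol, 1621 had several and 5534 had none; per gene, the probe set with the highest mean was kept. Every member is listed with its role, and the 4 readings are given for members at least 2-fold apart in a pairwise comparison and for the highest and lowest mean LPS change of each role. Differences between 2 arrays have no replicate check and no p-value. The additive fit used limma 3.58.1 in R 4.3.3 (eBayes with intensity trend, Benjamini-Hochberg, threshold 0.05). It was tested on simulated data, as was the trend removal (lowess, statsmodels 0.14.6). The values simulated for the fit were not rounded and held no difference of response between labels. That check therefore does not show how the fit behaves under either. The members and lists were chosen with earlier results of these data known. Alternatives were the floor, the fold, quantile normalization, removal of trends, the probe set rule, the prior and noise within the rounding.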

Additional observations from a re-analysis of the deposited data

Results flagged for a closer look

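With 1 array a group, the LPS difference of some genes was above 0 under 1 label and below 0 under the other. These differences between the labels were not tested. Higher under the label Bid-/- and lower in WT were Mx2 (difference of response 0.79), Oas2 (0.61), Adar (0.58), Trim30a (0.44), Oasl2 (0.40), Herc6 (0.34) and Trim25 (0.23), and, among the signalling genes, Tyk2 (0.38). The opposite held for Isg20 (-0.55), Bst2 (-0.46), Rtp4 (-0.29), Ifitm3 (-0.25), Ifi35 (-0.17) and the receptor chain Ifnar2 (-0.29). With trends in intensity and span removed, the difference of response was 0.73 for Mx2, 0.58 for Oas2, 0.48 for Adar, 0.45 for Oasl2, 0.36 for Trim30a, 0.20 for Herc6, -0.46 for Isg20, -0.41 for Rtp4 and -0.22 for Bst2, and the signs under the labels still differed for these genes. They no longer differed for Trim25 (0.09 in WT and 0.35 for the label Bid-/-), Ifi35 (0.13 and 0.07) and Ifitm3 (-0.04 and -0.02).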

How the results depend on the processing

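No paired analysis was possible because each group is 1 array and the labels carry no replicate numbers; leaving out an array leaves the fit without residual degrees of freedom. With 1.5-fold in place of 2-fold the counts of members became 2 higher and 8 lower (LPS in WT), 3 higher and 2 lower (LPS for the label Bid-/-), 12 higher (labels with LPS) and 4 higher (difference of response). Members at least 2-fold higher with LPS for the label Bid-/- numbered 2 after quantile normalization, 2 with the intensity trend removed and 2 with the span trend removed as well; those between the labels with LPS numbered 1 with either removal. The median LPS difference for the label Bid-/- turned from -0.06 to 0.0197 with the intensity trend removed and 0.046 with both. Members called by the additive fit for LPS were 0 higher without a floor, 0 higher without the intensity trend in eBayes, 2 higher and 4 lower after quantile normalization, and 2 higher and 4 lower with noise within the rounding. The last 2 settings called Ifih1 as well as Oasl1 higher, and Mx1, Ifit2, Ifit3 and Tor3a lower. Over all genes tested, the LPS calls of the fit were 190 higher and 177 lower of 11326 as reported, 0 of 19938 without a floor, and 810 higher and 1117 lower of 11308 after quantile normalization, so a missed call in this fit shows little; the rounded values gave 169 genes a residual of exactly 0. The medians between the labels kept their sign in all alternatives (0.19 to 0.21 without LPS, 0.48 to 0.62 with it), as did that of LPS in WT (-0.31 to -0.16) and of the difference of response (0.24 to 0.41). The causes of these moves were not tested.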
